A study of Mus musculus with 8 samples.

Results

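The transcripts of the kinesin and dynein motors, which carry cargo along axons, were described across the neuronal subtypes of the mouse stellate ganglion. All genes of the expression table whose symbol names a kinesin (Kif or Kifc), a kinesin light chain (Klc1 to Klc4), a subunit of cytoplasmic dynein (Dync or Dynl) or a dynactin subunit (Dctn1 to Dctn6) were taken, which gave 66 of the 19224 genes measured. The symbol rule also takes in Kif1bp, a kinesin binding protein that is not itself a motor. The neurons came from the left and right stellate ganglia of C57BL/6J mice aged 8 to 10 weeks, all of 1 condition, into whose heart an adeno-associated virus for GFP and into whose front paws one for tdTomato had been injected. Single cells were sequenced with the 10x Chromium system, and each library carries the name of 1 mouse. The methods describe ganglia of both sides combined for digestion in a larger number than 1 mouse has, so that a library holds 1 animal was taken from its label alone. The SDs and p-values therefore measure the spread between libraries, called mice here. Of the 8 samples, 5 could be matched to a mouse name in the data, and their 1002 neurons are analysed here as replicates 1 to 5, all from the second of the study's batches. The study's own subtype names were used, which comprise the noradrenergic NA1a, NA1b, NA1c, NA2 and NA3, Ach1 and Ach2, named for acetylcholine, and Glut, named for glutamate.

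Long-range transport in an axon runs on microtubules whose plus ends point away from the cell body. Most kinesins walk towards the plus ends and bring vesicles, mitochondria and membrane proteins to the terminal, whereas cytoplasmic dynein-1, with dynactin as its partner, walks back towards the cell body with endosomes and trophic signals. Sympathetic neurons depend on both directions, since their transmitter vesicles and receptors are made in the ganglion while target-derived nerve growth factor signals from the terminal.

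Motor transcripts were found in all 8 subtypes. In NA2, the dynein light chains Dynll1, Dynlrb1 and Dynlt3, the dynactin subunits Dctn3 and Dctn6 and Kif5b were higher than in NA1c, and the dynein heavy chain Dync1h1, Kif26a and Kifc2 were lower. Of the other light chains tested, Dynll2 was not called there and Dynlt1a was lower. Between NA2 and NA1c, 23.4% of all genes tested were called higher and 36.5% lower, and the motor genes were called at a share near this. Across all genes the direction went with transcript length. The mean levels of Dynll1 and Dync1h1 in NA1a lay between those in NA2 and NA1c. In NA3, which rests on 3 mice, the kinesin-1 light chains Klc1 and Klc2, Kif5c and Kif1a were lower than in NA1a and NA1c. Each of these calls against NA1a was lost under at least 1 other way of processing. Of the 34 motor genes tested, 5 were lower in NA3 than in NA1a, a share near the 11.8% of all genes. Against NA1c 11 were lower, where 15.7% of all genes were. Markers of satellite glia were higher and neuronal markers lower in NA3 than in NA1a and NA1c, and their part was not tested.

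The neurons of a mouse held between 916296 and 1196621 unique molecular identifiers (UMIs, each standing for 1 captured RNA molecule), in 165 to 235 neurons. The median neuron held 8182 UMIs in NA1a and 6644 in NA3, against 2342 to 3338 in NA1b, NA1c, NA2, Ach2 and Glut and 2162 in Ach1. Neuronal markers (Snap25, Syt1, Pcsk1n, Prph and Uchl1) were all present in every subtype. The subtypes did not spread evenly over mice, as 55 of the 62 Ach1 neurons came from replicate 4. NA3 reached 10 neurons in replicates 2, 4 and 5 only, so replicates 1 and 3 did not enter its values. A total of 21 cell barcodes occurred in more than 1 library. All levels below are mean UMIs per 10000 UMIs of a neuron, first averaged over the neurons of a subtype in a mouse and then given per mouse. UMIs count molecules and were not divided by transcript length.

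The motor genes together held 48486 UMIs, or 0.885% of all UMIs of these neurons. At least 1 UMI was seen for 64 of the 66 genes, 49 were seen in more than 10 neurons and 17 in more than 500. Kif4 and Kif2c were at 0 UMIs in 1002 neurons, which allows a share of neurons with a UMI of up to 0.299%. The 14 genes with the highest level held 75.5% of the UMIs of the family. In order of their level they were Dynll1, Klc1, Kif1b, Dync1h1, Kif1a, Kif21a, Dynll2, Dync1i2, Dctn2, Dctn3, Kif5a, Dctn1, Dynlrb1 and Kif5c. Averaged over the 5 noradrenergic subtypes they ran from 9.27 UMIs per 10000 for Dynll1 to 2.59 for Kif5c. This order did not hold within subtypes, as Dynll1 stood at 4.83 in NA1c and 16.4 in NA2, and Klc1 (9.18 on average) at 10.7 and 10.5. Over all neurons of a mouse, the coefficient of variation between the 5 mice ran from 8.31% for Dctn2 to 31.4% for Dctn3 among these 14. In all, 34 of the 66 passed the filter of 0.5 UMIs per 10000 in at least 3 profiles of mouse and subtype and were tested. The other 32 were too low to compare.

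**Figure D1:**
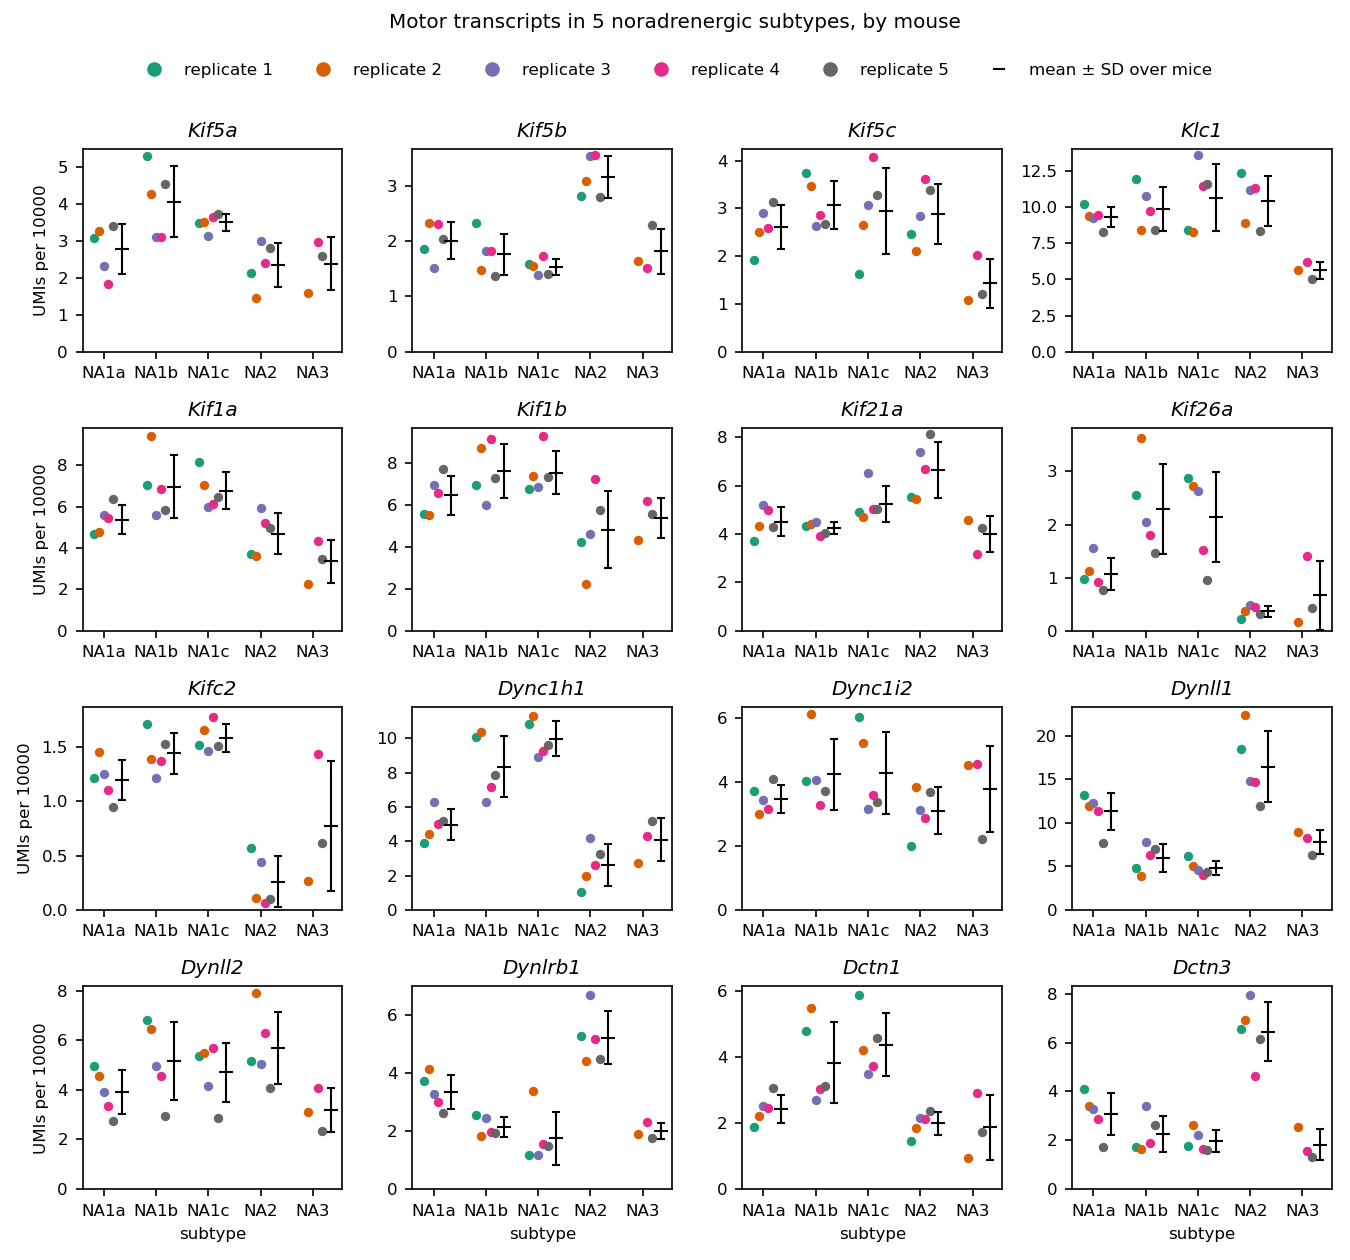
Levels of 16 motor genes in the 5 noradrenergic subtypes (x axis), in mean UMIs per 10000 (y axis, from 0, a scale of its own in each panel). A point is 1 mouse, coloured by replicate, and the bar is the mean ± SD over the 5 mice (3 for NA3). Dynll1, Dynlrb1, Dctn3 and Kif5b sit highest in NA2, while Dync1h1, Dctn1, Kif26a and Kifc2 sit lowest there or in NA3 and highest in NA1b and NA1c.

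Among the subunits of dynein, Dynll1 and Dync1h1 had nearly opposite orders across the subtypes. Dynll1 encodes the LC8 light chain, a small dimer that joins the dynein complex and also binds many other proteins. Its level in replicates 1 to 5 was 18.5, 22.3, 14.8, 14.7 and 11.9 UMIs per 10000 in NA2, and 13.2, 12.0, 12.3, 11.4 and 7.65 in NA1a. It was 4.84, 3.88, 7.77, 6.27 and 6.93 in NA1b and 6.14, 5.02, 4.6, 3.98 and 4.40 in NA1c. All NA2 mice were above all NA1b and NA1c mice, whereas the ranges of NA2 and NA1a overlapped, as did those of NA1a and NA1b through replicate 5 of NA1a. In NA3 the level of replicates 2, 4 and 5 was 8.97, 8.21 and 6.30. The level in NA2 was 3.41-fold that in NA1c (log2 difference 1.73, SE 0.19, adjusted p = 1.04e-09), and the level in NA1a was 2.34-fold that in NA1c (log2 difference 1.20, SE 0.19, adjusted p = 2.43e-04). Dynll1 was also 1.90-fold higher in NA1a than in NA1b (log2 difference 0.94, SE 0.19, adjusted p = 0.00192) and 1.62-fold higher in NA3 than in NA1c (log2 difference 0.77, SE 0.23, adjusted p = 0.0116). These p-values, as all adjusted ones that follow, are from limma with the mouse as a block, adjusted after Benjamini and Hochberg over the 6185 genes tested. The subtypes had been defined from the same neurons, so the test measures how steady a difference was over mice.

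Dync1h1 encodes the heavy chain that holds the motor domain of dynein-1. It stood at 10.8, 11.3, 8.88, 9.27 and 9.61 UMIs per 10000 in NA1c and at 10.1, 10.3, 6.29, 7.18 and 7.84 in NA1b. In NA1a it was 3.91, 4.44, 6.28, 5.03 and 5.18, in NA2 1.05, 1.96, 4.21, 2.59 and 3.26, and in the 3 mice of NA3 2.75, 4.33 and 5.2. Every NA1c mouse was above every NA1a, NA2 and NA3 mouse, and NA1b and NA1c overlapped. The level in NA1c was 3.81-fold that in NA2 (log2 difference -2.02, SE 0.23, adjusted p = 1.61e-09), 2.01-fold that in NA1a (log2 difference -1.0, SE 0.23, adjusted p = 0.00548) and 2.44-fold that in NA3 (log2 difference -1.34, SE 0.27, adjusted p = 2.95e-04). A UMI of Dync1h1 was found in 94.0% ± 5.97 (SD, n = 5) of NA1c neurons and in 52.3% ± 17.1 (SD, n = 5) of NA2 neurons. After thinning each neuron to 2000 UMIs, the shares were 85.2% ± 8.33 (SD, n = 5) and 35.4% ± 12.2 (SD, n = 4). Thinning left out the shallower neurons, keeping 169 of 216 in NA1c and 101 of 150 in NA2, and no cell type that lacks Dync1h1 was among the cells to set a background.

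The promoters of Dynll1 and Dync1h1 are shown because these genes had the smallest p-values of the family in the test across the 5 subtypes and differed in opposite directions. Both stretches are from RefSeq on build GRCm38.p6 and run from 250 bases before to 50 bases after the transcription start, on the strand of the gene. Dynll1 lies on the minus strand (chr5:115300941-115301240) and Dync1h1 on the plus strand (chr12:110601145-110601444). Capitals mark each match to GGGCGG or to its reverse complement CCGCCC, the core of the GC box bound by Sp1-like factors. Dynll1 has 2 matches and Dync1h1 has 3, of which 2 overlap by a base.
Dynll1: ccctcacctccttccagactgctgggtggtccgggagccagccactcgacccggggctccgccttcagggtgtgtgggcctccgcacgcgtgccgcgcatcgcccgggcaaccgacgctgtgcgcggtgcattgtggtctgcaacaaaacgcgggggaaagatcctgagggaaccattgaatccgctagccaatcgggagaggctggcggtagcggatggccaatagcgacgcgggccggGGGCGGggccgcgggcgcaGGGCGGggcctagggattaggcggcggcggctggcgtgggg
Dync1h1: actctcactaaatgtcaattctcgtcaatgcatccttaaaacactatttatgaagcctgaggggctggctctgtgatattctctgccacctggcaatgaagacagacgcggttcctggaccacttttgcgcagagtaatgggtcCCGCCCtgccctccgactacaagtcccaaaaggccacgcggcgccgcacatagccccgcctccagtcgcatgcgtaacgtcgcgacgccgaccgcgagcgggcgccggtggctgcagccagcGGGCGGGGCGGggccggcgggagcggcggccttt
Of 55 promoters found for 48 of the motor genes, 37 held such a match (67.3%), against 35.7% of all 32851 promoters of this length. The latter belong to 27025 genes, whether or not expressed in these neurons, so the shares do not single out the motor genes among expressed genes. A match of letters says nothing of binding.

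Of the other light chains, Dynlrb1 and Dynlt3 were higher in NA2 than in NA1c, as Dynll1 was, and Dynll2 was not called there. Dynlrb1, the roadblock light chain, was at 5.28, 4.44, 6.71, 5.19 and 4.49 UMIs per 10000 in the 5 mice of NA2 against 1.16, 3.38, 1.19, 1.56 and 1.48 in NA1c. The groups did not overlap, and the level was 2.98-fold higher in NA2 (log2 difference 1.62, SE 0.23, adjusted p = 1.11e-07). It was also 1.92-fold higher in NA1a, at 3.72, 4.15, 3.30, 3.02 and 2.62, than in NA1c (log2 difference 0.99, SE 0.23, adjusted p = 0.00467), and there replicate 2 of NA1c lay within the NA1a range. Dynlt3, a Tctex-type light chain, was at 3.48, 3.29, 3.18, 6.00 and 4.85 in NA2 and 1.59, 1.68, 0.895, 0.421 and 1.46 in NA1c, again without overlap (log2 difference 1.79, SE 0.26, adjusted p = 2.95e-07). Dynll2, the close relative of Dynll1, was at 5.70 ± 1.46 (SD, n = 5) in NA2 and 4.71 ± 1.19 (SD, n = 5) in NA1c, overlapping between them (log2 difference 0.28, SE 0.18, adjusted p = 0.193). In NA1a Dynll2 was below NA1b and NA1c in each of the 5 mice, without a call (log2 differences -0.36 and -0.25). No stretch of 50 bases, the length of a read, in the last 500 bases of Dynll1 lay in Dynll2. Dynlt1a went the other way, from 0.323 ± 0.119 (SD, n = 5) in NA1c to 0.0801 ± 0.104 (SD, n = 5) in NA2 (log2 difference -1.38, SE 0.42, adjusted p = 0.00452). This value rests on 8 UMIs in NA2 and 27 in NA1c. Of the 50-base stretches in the last 500 bases of its near copies Dynlt1b and Dynlt1c, 88.9% and 80.0% also lay in Dynlt1a, while 0% of those of Dynlt1a lay in Dynlt1b, Dynlt1c or Dynlt1f.

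The remaining dynein-1 subunits differed less. Dync1i2, an intermediate chain that links the motor to dynactin, was at 4.28 ± 1.27 (SD, n = 5) in NA1c and 3.10 ± 0.732 (SD, n = 5) in NA2, and the test across the 5 subtypes gave an adjusted p of 0.277 by limma. Dync1i1, Dync1li1 and Dync1li2 were not called in any of the 6 contrasts. Across the 5 subtypes Dync1li1 was called (adjusted p = 0.0131 by limma), and Dync1i1 and Dync1li2 were not. Summed over heavy, intermediate and light intermediate chains, dynein-1 stood at 17.3 ± 2.84 in NA1c and 15.9 ± 3.19 in NA1b, against 10.7 ± 1.35 in NA1a and 9.20 ± 2.45 in NA2. The 9 light chains summed to 31.8 ± 4.70 in NA2 and 21.1 ± 3.82 in NA1a, against 15.8 ± 1.74 in NA1b and 13 ± 2.30 in NA1c. These sums, in UMIs per 10000 with SD over 5 mice, carry no test, and Dync1h1 and Dynll1 hold a large part of each. Dync2h1, the heavy chain of the dynein-2 that works in cilia, was at 0.261, 0.997, 1.05, 1.00 and 1.02 in NA1c and 0, 0.419, 0.0133, 0 and 0.0934 in NA2 (log2 difference -2.46, SE 0.46, adjusted p = 1.65e-05). Replicate 1 of NA1c lay within the NA2 range, and only 4 UMIs of this gene were found in 150 NA2 neurons.

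**Figure D2:**
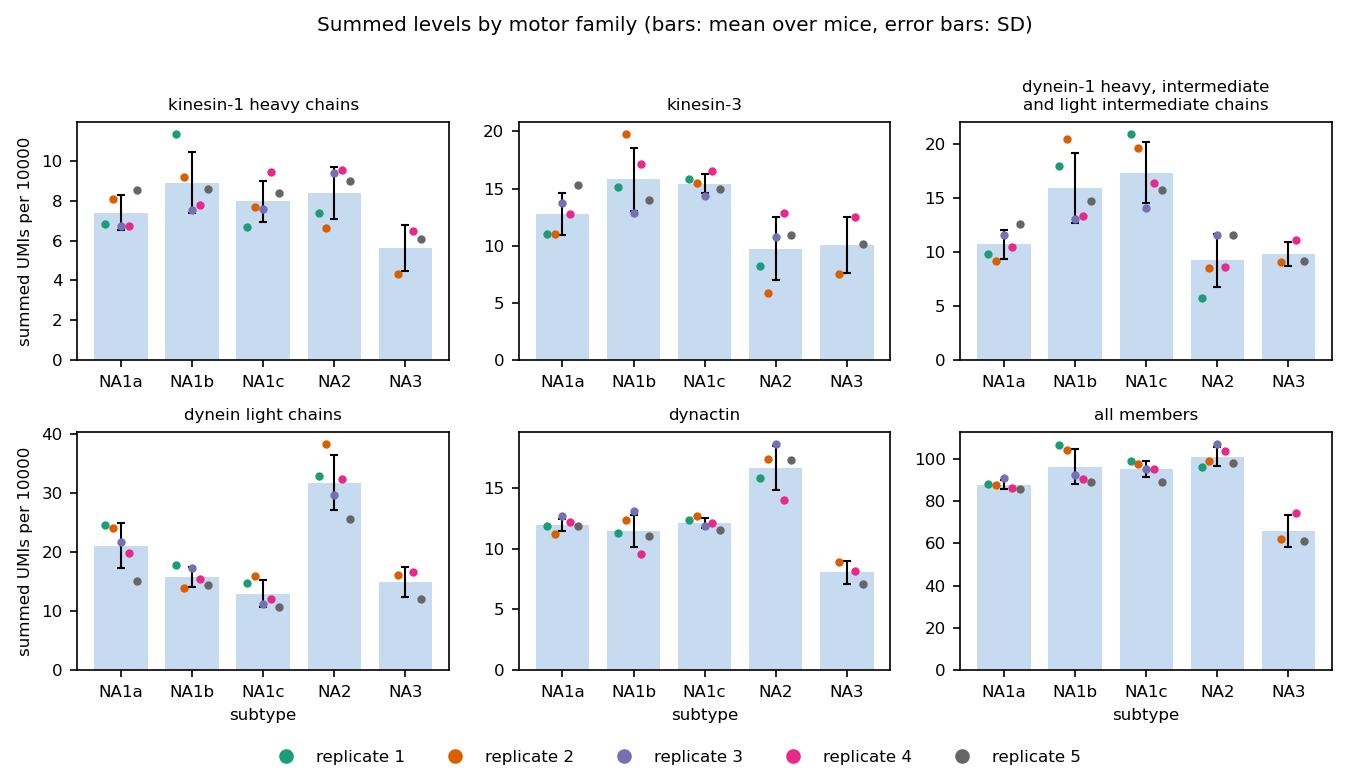
Summed levels of 5 motor families and of all 66 motor genes by noradrenergic subtype (x axis), in UMIs per 10000 (y axis, from 0). Bars are means over mice, error bars the SD and points the mice (5, or 3 for NA3). The dynein light chains are highest in NA2, the dynein-1 heavy, intermediate and light intermediate chains in NA1b and NA1c, and dynactin in NA2, while the sum of all motor genes is lowest in NA3.

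Within dynactin, the activator that lets dynein bind cargo, the largest subunit Dctn1 was lower in NA2 than in NA1c, while Dctn2, Dctn3 and Dctn6 were higher. Dctn1, the p150 subunit that holds on to the microtubule, was at 5.89, 4.22, 3.47, 3.74 and 4.57 UMIs per 10000 in NA1c and 1.44, 1.84, 2.16, 2.13 and 2.37 in NA2. In NA1a it was 1.88, 2.20, 2.52, 2.46 and 3.06. Neither NA2 nor NA1a overlapped with NA1c, and the level in NA1c was 2.20-fold that in NA2 (log2 difference -1.10, SE 0.24, adjusted p = 1.73e-04) and 1.81-fold that in NA1a (log2 difference -0.82, SE 0.24, adjusted p = 0.0335). Dctn3, a small shoulder subunit, was at 6.56, 6.90, 7.95, 4.62 and 6.15 in NA2 and 1.75, 2.64, 2.23, 1.65 and 1.61 in NA1c, a 3.26-fold difference without overlap (log2 difference 1.66, SE 0.22, adjusted p = 3.47e-08). Dctn2, also called dynamitin, was at 3.80, 4.62, 4.61, 4.96 and 5.29 in NA2 and 2.88, 3.60, 3.05, 4.25 and 3.13 in NA1c (log2 difference 0.45, SE 0.20, adjusted p = 0.0497), and replicate 4 of NA1c lay above replicate 1 of NA2. Dctn6, a pointed-end subunit, was 1.23 ± 0.378 (SD, n = 5) in NA2 and 0.487 ± 0.101 (SD, n = 5) in NA1c (log2 difference 1.15, SE 0.31, adjusted p = 0.00151). Dctn4 and Dctn5 were not called in any contrast.

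The heavy chains of kinesin-1, the general motor for axonal vesicles and mitochondria, differed in their proportions between NA2 and NA1c. Kif5a, which in mammals is found mainly in neurons, was at 3.48, 3.51, 3.12, 3.65 and 3.73 UMIs per 10000 in NA1c and 2.11, 1.46, 2.98, 2.39 and 2.79 in NA2, without overlap, and 1.49-fold lower in NA2 (log2 difference -0.59, SE 0.22, adjusted p = 0.0179). Kif5b, the form found in all tissues, was at 2.82, 3.10, 3.55, 3.57 and 2.81 in NA2 and 1.60, 1.55, 1.38, 1.73 and 1.40 in NA1c, without overlap, and 2.07-fold higher in NA2 (log2 difference 1.00, SE 0.21, adjusted p = 1.26e-04). Kif5c, also mainly neuronal, was at 2.88 ± 0.622 (SD, n = 5) in NA2 and 2.94 ± 0.902 (SD, n = 5) in NA1c and was not called there (log2 difference 0.00, SE 0.22, adjusted p = 0.994). The share of Kif5b among the 3 heavy chains was 38.2% ± 5.44 (SD, n = 5) in NA2 and 19.4% ± 2.75 (SD, n = 5) in NA1c, and that of Kif5a 27.7% ± 4.19 and 44.3% ± 5.04. The shares of Kif5b in NA1b and NA1a were 20.0% ± 3.91 and 27.4% ± 4.69 (SD, n = 5 each). The sum of the 3 chains was 8.39 ± 1.29 in NA2 and 7.97 ± 1.03 in NA1c, a difference within the SD.

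The light chains couple kinesin-1 to its cargo. Klc1, the main neuronal light chain, was not called between any of NA1a, NA1b, NA1c and NA2 in the contrasts made, with levels of 9.31 ± 0.691, 9.87 ± 1.53, 10.7 ± 2.30 and 10.5 ± 1.72 UMIs per 10000 (SD, n = 5 each) in this order. In NA3 it was 5.63, 6.22 and 5.02 in replicates 2, 4 and 5, below every mouse of the other noradrenergic subtypes (log2 difference -0.64, SE 0.20, adjusted p = 0.0201 against NA1a). Klc2, a second light chain, was at 0.494, 0.403 and 0.484 in NA3 against 1.79, 1.46, 1.96, 1.10 and 1.32 in NA1c (log2 difference -1.55, SE 0.38, adjusted p = 0.00196), without overlap. Against NA1c, Klc2 was also lower in NA2, in 4 of 5 mice (log2 difference -1.06, SE 0.32, adjusted p = 0.00405). Klc3 and Klc4 did not pass the filter.

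Kinesin-3 motors carry precursors of synaptic and dense-core vesicles. Kif1a, the neuronal motor of this family, was at 8.19, 7.07, 5.97, 6.14 and 6.48 UMIs per 10000 in NA1c, 3.72, 3.62, 5.95, 5.23 and 4.96 in NA2 and 2.25, 4.36 and 3.45 in NA3. It was lower in NA2 (log2 difference -0.53, SE 0.20, adjusted p = 0.0182) and in NA3 (log2 difference -1.05, SE 0.23, adjusted p = 8.17e-04) than in NA1c. Neither overlapped with NA1c, but replicate 3 was at 5.95 in NA2 and at 5.97 in NA1c. Kif1b, which also moves mitochondria, was at 6.76, 7.38, 6.84, 9.29 and 7.33 in NA1c and 4.24, 2.25, 4.61, 7.21 and 5.74 in NA2 (log2 difference -0.72, SE 0.19, adjusted p = 0.00143), lower in NA2 in each mouse, with overlap between the groups through replicate 4. Kif13a, a motor for recycling endosomes, was at 0.425 ± 0.233 (SD, n = 5) in NA1c and 0.141 ± 0.133 (SD, n = 5) in NA2 (log2 difference -1.19, SE 0.38, adjusted p = 0.00723).

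Of the kinesins outside these families, Kif21a, a kinesin-4 that restrains microtubule growth, differed among the subtypes (adjusted p = 0.00713 by limma across the 5 subtypes). It ranged from 4.00 ± 0.750 (SD, n = 3) in NA3 to 6.64 ± 1.16 (SD, n = 5) in NA2, and none of the 6 contrasts was called. Kifc2, a kinesin-14 with its motor domain at the carboxy terminus, was at 1.52, 1.65, 1.46, 1.78 and 1.51 in NA1c and 0.575, 0.111, 0.445, 0.0669 and 0.102 in NA2, 6.09-fold lower and without overlap (log2 difference -2.46, SE 0.33, adjusted p = 5.24e-08). A UMI of Kifc2 was found in 45.1% ± 5.83 (SD, n = 5) of NA1c neurons and 11.3% ± 6.86 (SD, n = 5) of NA2 neurons, and in 32.4% ± 6.06 (SD, n = 5) and 4.01% ± 3.03 (SD, n = 4) after thinning. Kif26a, a kinesin that binds microtubules without walking on them, was at 2.87, 2.72, 2.63, 1.53 and 0.956 in NA1c and 0.225, 0.366, 0.490, 0.442 and 0.323 in NA2, 5.80-fold lower and without overlap (log2 difference -2.18, SE 0.32, adjusted p = 3.81e-07). Its relative Kif26b stood at 1.71 ± 0.525 and 0.430 ± 0.263 (SD, n = 5 each) in these subtypes (log2 difference -1.94, SE 0.30, adjusted p = 7.63e-07). Kif2a, which takes microtubules apart at their ends, was higher in NA2, at 1.10 ± 0.468 against 0.425 ± 0.199 (SD, n = 5 each; log2 difference 1.17, SE 0.31, adjusted p = 0.00143). Kif3a, Kif3b and Kif3c, the heterodimeric kinesin-2 motors, were not called in any contrast. Each was called across the 5 subtypes (adjusted p = 0.0437, 0.0257 and 0.0141 by limma, in this order).

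Counted over the 34 motor genes tested, 29 differed somewhere among the 5 noradrenergic subtypes, and 67.9% of all 6185 genes did. With neurons thinned to 2000 UMIs, 18 motor genes differed. Shares over all genes are given here for the main fit and for profiles centred on their median gene only. The counts under thinning and the other alternatives therefore cannot be set against all genes. Between NA2 and NA1c, 8 were higher in NA2 and 12 lower, where 23.4% of all genes were called higher and 36.5% lower. The share of the motor genes called in this contrast is therefore near that of all genes. The motor genes higher in NA2 were 3 light chains, 3 dynactin subunits, Kif5b and Kif2a. The median log2 difference was -0.04 over the motor genes and -0.29 over all genes, and with each profile centred on its median gene the split became 13 higher and 9 lower, where 31.3% and 29.3% of all genes were called. Centring took away the calls of Kif1a (adjusted p = 0.350), Kif1b (0.0680) and Kif5a (0.264) and added Dctn5, Dync1li1, Dynll2, Kif1bp and Kif21a as higher in NA2. Thinning left 13 genes called in this contrast, 6 higher and 7 lower, and Dctn1 (adjusted p = 0.111), Dctn2 (0.773), Dynlt1a (0.556), Kif1a (0.327), Kif1b (0.0502) and Kif5a (0.740) were among those no longer called, as were Kif13a and Kif2a. NA1a against NA1c gave 2 genes higher (Dynll1 and Dynlrb1) and 2 lower (Dync1h1 and Dctn1), against a background of 3.93% and 1.75%. Thinning left Dynll1 alone (adjusted p = 0.0568 for Dync1h1), and mean natural log values gave 7 higher and 1 lower. NA1a against NA1b gave Dynll1 alone as higher (background 2.67%) and none lower (background 1.47%). In this contrast 12 of the 34 motor genes were at an unadjusted p below 0.05 by limma. That is a larger share than the 993 of all 6185 genes. Most of these 12 were lower in NA1a, and none of the lower ones was called in this contrast. There a pseudocount of 1 gave 1 higher and 4 lower, and mean natural log values 3 higher and 2 lower. For NA1b against NA1c limma called 0 motor genes (background 0.469% higher and 1.07% lower). There 3 motor genes were at an unadjusted p below 0.05, as were 582 of all 6185 genes. Contrasts that share a subtype share its neurons and are not independent of each other.

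**Figure D3:**
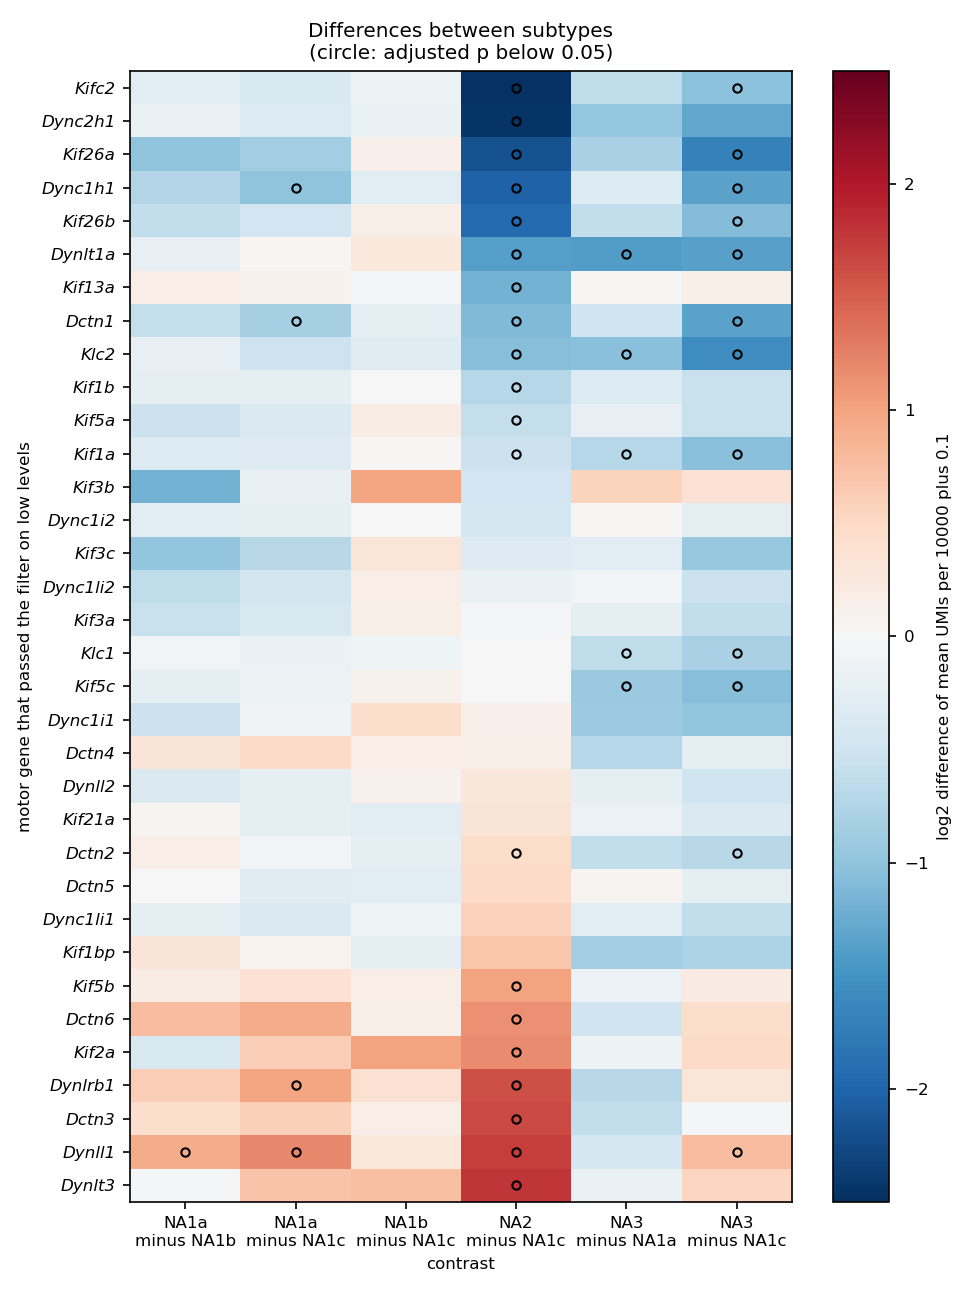
Differences of the 34 motor genes tested (rows, ordered by NA2 minus NA1c) in 6 contrasts between subtypes (columns), as log2 differences of mean UMIs per 10000 plus 0.1. Red is higher and blue lower in the subtype named first, the colour scale ends at 2.5, and a circle marks an adjusted p below 0.05. Most circles, 20, are in NA2 minus NA1c, and 11 of the 12 in NA3 minus NA1c are lower.

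The direction of a motor gene in NA2 went with the length of its transcript. The 8 genes higher in NA2 than in NA1c had a median longest coding transcript of 1907 bases, the 12 lower ones 6892 bases and the 14 not called 2939.5 bases. Kif5b and Kif2a, which were higher in NA2, have long transcripts, and Kifc2, which was lower, has a shorter one. Across all genes the same held, as the median log2 difference was 0.92 for the 1551 genes with transcripts under 2000 bases and -1.25 for the 1648 with transcripts over 5000 bases. Spearman's rho between length and difference was -0.70 over the 34 motor genes and -0.61 over 6081 genes, given as a description since all genes share the same libraries. Of the 5 motor genes under 2000 bases 4 were higher and 0 lower, where 58.7% and 6.00% of all genes of that length were. Of the 14 over 5000 bases 2 were higher and 8 lower, where 3.58% and 65.7% were. NA1a against NA1c had a rho of -0.51 over the motor genes and -0.36 over all genes.

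**Figure D4:**
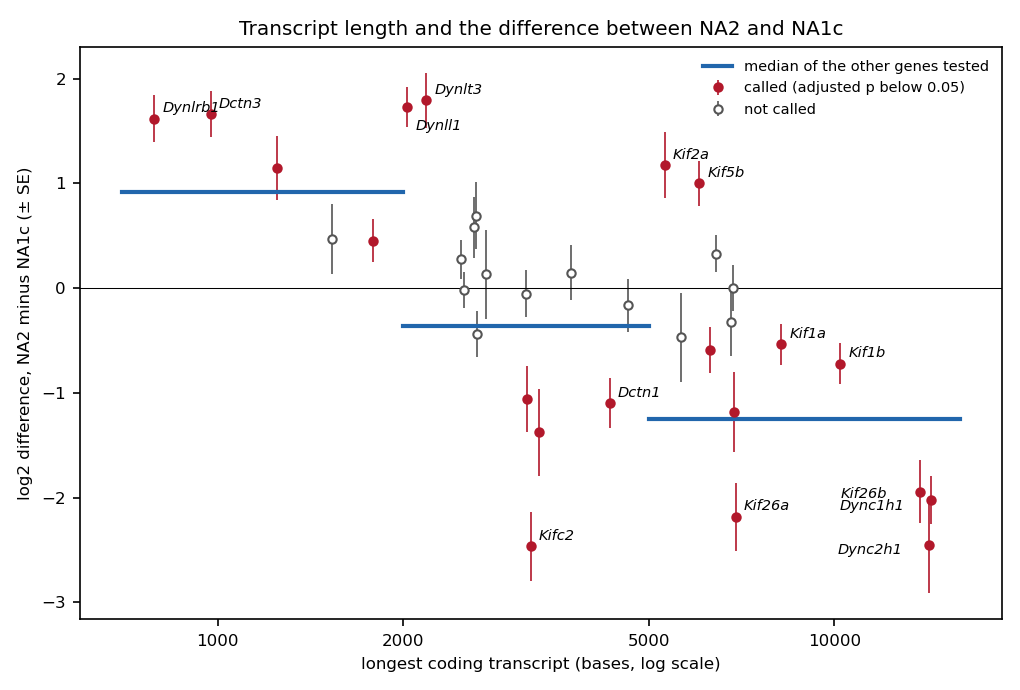
Log2 difference between NA2 and NA1c (y axis, ± SE) against the length of the longest coding transcript in bases (x axis, log scale) for the 34 motor genes tested. Filled points are genes with an adjusted p below 0.05, open points the others, and blue lines the median of the other genes tested that are under 2000, 2000 to 5000 and over 5000 bases long. Dynlrb1, Dctn3, Dynll1 and Dynlt3 lie at the upper left, between 1.62 and 1.79, and the long Dync1h1 and Dync2h1 at the lower right, at -2.02 and -2.46.

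Measures of RNA quality moved with NA2 as well. The nuclear RNA Malat1 was at 74.2 ± 24.0 UMIs per 10000 (SD, n = 5) in NA2 and at 763 ± 228 (SD, n = 5) in NA1c, and another long noncoding RNA, Meg3, at 13.7 ± 4.07 and 506 ± 127. Mitochondrial RNA made up 7.27% ± 1.01 of UMIs in NA2 and 3.37% ± 1.59 in NA1c, and RNA of ribosomal protein genes 7.57% ± 0.882 and 3.00% ± 0.355 (SD, n = 5 each). Genes with transcripts over 5000 bases gave 10.8% ± 1.88 of UMIs in NA2 and 28.5% ± 2.06 in NA1c. The values of the individual mice did not overlap in any of these. Their part in the differences of the motor genes in NA2 was not tested.

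In NA3 the kinesin-1 subunits Klc1, Klc2 and Kif5c and the kinesin-3 Kif1a were lower than in NA1a and NA1c, whereas Dynll1 was higher than in NA1c. Kif5a, Kif5b, Kif1b and Kif13a, of the same families, were called in neither contrast. All 66 genes summed to 65.9 ± 7.50 UMIs per 10000 (SD, n = 3) in NA3, against 87.8 ± 2.09, 96.4 ± 8.17, 95.3 ± 3.82 and 101 ± 4.49 (SD, n = 5 each) in NA1a, NA1b, NA1c and NA2. Against NA1a, 5 of the 34 genes tested were lower in NA3 and 0 higher, with a background of 11.8% lower and 7.29% higher. The share called lower is near that of all genes. They were Klc1, Klc2, Kif5c, Kif1a and Dynlt1a, the last with 6 UMIs in NA3, and the median log2 difference was -0.47 over the motor genes and -0.25 over all genes. Kif5c was at 1.07, 2.02 and 1.20 in replicates 2, 4 and 5 of NA3 and at 1.91, 2.51, 2.91, 2.58 and 3.13 in the 5 mice of NA1a (log2 difference -0.93, SE 0.26, adjusted p = 0.00850), overlapping through replicate 4 of NA3 and replicate 1 of NA1a. Against NA1c, 11 were lower in NA3 and 1 higher, with a background of 15.7% and 11.1%. The 11 were Kif26a, Klc2, Dynlt1a, Dync1h1, Dctn1, Kif26b, Kif5c, Kif1a, Kifc2, Klc1 and Dctn2, and the higher one was Dynll1. The median log2 difference to NA1c was -0.59 over the motor genes and -0.26 over all genes. Without replicate 5 the 5 calls against NA1a became 1, without replicate 2 they became 2 and without replicate 4 they became 3, while with profiles centred on their median gene Kif5c alone was left, where 8.62% of all genes were lower and 7.83% higher. Thinning took away the calls of Kif5c (adjusted p = 0.122), Kif1a (0.149), Klc2 (0.476) and Dynlt1a (0.221) against NA1a. Profiles of at least 5 neurons gave 10 lower than in NA1a, and 18 lower and 1 higher than in NA1c. These counts and those without a replicate have no share over all genes beside them, so they do not single out the motor genes. Against NA1c, 8 were lower and 1 higher after centring, where 11.3% and 13.2% of all genes were. The sum over all 66 genes carries no test, and that of the 9 light chains did not differ from that in NA1c by more than the SD.

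Markers of satellite glia moved with NA3. The 10 genes of that list summed to 319 UMIs per 10000 in NA3 (224 to 445 over 3 mice) against 10.3 in NA1a (9.20 to 11.8 over 5 mice) and 17.4 in NA1c (9.94 to 31.1), and all 10 stood at 0.5 or more in NA3. The 5 neuronal markers summed to 53.0 in NA3 (48.9 to 57.4), against 112 in NA1a (95.2 to 120) and 105 in NA1c (98.8 to 116). The 5 fibroblast markers summed to 16.9 in NA3 (10.1 to 29.7) and 0.901 in NA1a (0.698 to 1.23). Since each level is a share of a neuron's UMIs, fewer motor transcripts and more RNA of other kinds cannot be told apart here. The means of some measures of RNA quality differed as well. Mitochondrial RNA was at 7.61% ± 3.23 of UMIs (SD, n = 3) in NA3 and 3.71% ± 1.68 (SD, n = 5) in NA1a. Meg3 was at 143 ± 68.8 UMIs per 10000 (SD, n = 3) and 266 ± 50.6 (SD, n = 5). Malat1 was at 742 ± 157 and 872 ± 118, and RNA of ribosomal protein genes at 4.75% ± 1.28 and 4.54% ± 1.03 of UMIs. The values of the individual mice overlapped in each of these. Replicate 2 of NA3 stood apart, with 11.3% mitochondrial RNA, 13163 UMIs per neuron and 13.9% of UMIs from transcripts over 5000 bases, where replicates 4 and 5 had 5.35% and 6.18%, 4251 and 5778, and 22.5% and 22.8%. Without it, 2 motor genes were called against NA1a and 9 against NA1c, counts that have no share over all genes beside them. The part of these markers and measures in the low levels was not tested.

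Adaptors and regulators that load or activate the motors were followed in a list of 40 genes, 38 of which were tested, and 29 of these differed among the 5 subtypes, where 67.9% of all genes did. Between NA2 and NA1c, 9 were higher and 15 lower, in proportions near the background above. The lower ones included Hook1 (log2 difference -3.87, SE 0.30, adjusted p = 9.86e-14) and Hook2 (log2 difference -3.01, SE 0.36, adjusted p = 3.87e-09), which join dynein to endosomes, and Bicd1 (log2 difference -1.98, SE 0.26, adjusted p = 3.60e-08), a dynein adaptor. Only 15 UMIs of Hook1 and 2 of Hook2 were found in the 150 NA2 neurons, so the size of these differences rests on few UMIs. NA1a differed from NA1b in 3 adaptors, where 2.67% of all genes were called higher and 1.47% lower. Mapk8ip2, a kinesin-1 scaffold, was lower, in 4 of 5 mice (log2 difference -1.07, SE 0.26, adjusted p = 0.00934). Hook1 (log2 difference 1.03, SE 0.30, adjusted p = 0.0396) and Fez1 (log2 difference 1.03, SE 0.31, adjusted p = 0.0456), a kinesin-1 adaptor, were higher. Mapk8ip2 was also lower in NA1a than in NA1c (log2 difference -1.01, SE 0.26, adjusted p = 0.0146), and Hook1 lower in NA1b than in NA1c (log2 difference -1.13, SE 0.30, adjusted p = 0.0352), each the only one of the 38 adaptors called there. The background was 3.93% higher and 1.75% lower for NA1a against NA1c, and 0.469% higher and 1.07% lower for NA1b against NA1c. In NA3, 9 adaptors were lower and 0 higher than in NA1a (background 11.8% and 7.29%), led by Rufy3, Hook1 and Sybu, at log2 differences of -1.23, -1.63 and -1.75. Against NA1c, 11 were lower in NA3 and 2 higher (background 15.7% and 11.1%), with Hook1, Rufy3 and Mapk8ip1 at -1.74, -1.14 and -1.19.

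Ach1, Ach2 and Glut reached 10 neurons in 1, 2 and 0 mice and were left out of the fit. The labels held in part. Chat, Slc18a3 and Slc5a7, which make acetylcholine, load it into vesicles and take up choline, summed to 4.11 UMIs per 10000 in Ach2 (mean of 2 mice) and to 0.397 in Ach1, where Chat was at 0. The 4 noradrenergic markers Dbh, Th, Slc18a2 and Slc6a2 summed to 58.0 in Ach1 and 81.4 over the Glut neurons, against 22.8 to 44.6 in the noradrenergic subtypes and 10.3 in Ach2. Of 3 vesicular glutamate transporters, Slc17a6 was found in Glut alone, at 1.21 over its 17 neurons, while Slc17a7 and Slc17a8 were at 0 there. In Ach1 the 66 genes summed to 102 UMIs per 10000 in replicate 4, and in Ach2 to 89.4 and 81.1 in replicates 1 and 4. Dynll1 was at 12.0 in Ach1 and at 8.36 and 6.91 in Ach2, and Klc1 at 13.1 and at 6.44 and 8.44. These lie within or near the ranges of the noradrenergic subtypes. Markers of other cells were also high in Ach1, at 133 for satellite glia, 37.4 for fibroblasts and 7.26 for immune cells, with mitochondrial RNA at 8.37% of UMIs and Malat1 at 185 UMIs per 10000, and their part was not tested. Glut was represented by 17 neurons, 7 each in replicates 4 and 5. There Kif21a averaged 17.0 and 17.3 UMIs per 10000 in replicates 4 and 5, where the highest noradrenergic mouse had 8.13. Kif5b averaged 7.51 and 17.9, where the highest noradrenergic mouse had 3.57. In these replicates both lay above all noradrenergic mice, and so did Kif1a, at 16.2 and 9.94, and Kif1b, at 17.3 and 10.9. Dynll1 averaged 4.07 and 2.11. Replicates 1 and 3 held 2 and 1 Glut neurons and differed from this, with Kif21a at 3.20 and 7.22, Kif5b at 3.20 and 14.4 and Dynll1 at 24.9 and 14.4, each from 1 to 8 UMIs. Over the 17 neurons the 3 kinesin-1 heavy chains summed to 24.2 and all 66 genes to 144. These genes were picked out after their values were seen, and 17 neurons allow no more than a description.

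Kinesins that build and move the mitotic spindle were scarce, in a cell type that no longer divides. Of the 12 on the list 11 were in the table, and 148 of 1002 neurons (14.8%) held a UMI of at least 1 of them, but most of these UMIs were of Kif22, with 115 in 97 neurons. Kif22 is a chromokinesin that moves chromosomes. Leaving it out, 61 neurons were left. The others ranged from 0 UMIs for Kif4 and Kif2c to 17 for Kif23. A pair or more of these kinesins occurred in 12 neurons and 3 or more in 1. A UMI of 6 markers of dividing cells, such as Mki67 and Top2a, was found in 94 neurons, and 20 neurons held both kinds.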

How the data were processed

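Single-cell libraries were prepared with the 10x Chromium system from stellate ganglia. The authors aligned reads to GRCm38 (mm10) with Cell Ranger (version 2.1.1 per the labels), filtered cells on genes, UMIs and mitochondrial RNA, and normalized, clustered and named the neurons. Values were deposited as natural logs, ln(1 + UMIs per 10000), for each neuron and before the mice were integrated. UMIs were recovered from the smallest step between the values of a neuron, which gave whole numbers within 0.01 for 100% of the values above 0. The 3 mouse names with 301 of the 1303 neurons were not used, because each resembles the title of 1 sample and the description of another. All 5 mice used are from 1 batch. No step against doublets is named in the methods, and none was added.

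The members, gene lists and tests were chosen with earlier results of these data known. UMIs per 10000 were averaged over the neurons of each mouse and subtype where there were 10 or more, which made 23 profiles, and the 6185 genes that reached 0.5 in 3 profiles were kept. With a pseudocount of 0.1, log2 levels were fitted in limma 3.58.1 (R 4.3.3) with terms for subtype and mouse (the block) and an intensity trend, and adjusted p-values below 0.05 (Benjamini-Hochberg, all genes) were called. On this scale a log2 difference understates the change of a low gene. The profiles of a number come from 1 mouse, hence the block, and their residuals correlated at 0.0712 on average, against -0.0672 between mice. Named genes are the 14 with the highest mean level and, in each of 6 contrasts, up to 4 called in each direction with the largest difference that had the same sign in every mouse, plus the mitotic kinesins and up to 3 adaptors per contrast by p. Other motor genes called were named after their values were seen. Transcript lengths are from GENCODE vM21. Tables and figures were made in Python 3.11.15. For a gene at 0, the upper limit was set at 3 neurons of the total, for counting error only.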

Additional observations from a re-analysis of the deposited data

Results flagged for a closer look

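For each of the 20 named genes, the 5 mice were compared over all their neurons and within NA1a, NA1b, NA1c and NA2, which made 100 groups. In 6 of them 1 mouse stood apart from the other 4 by more than 0.71 of the whole range, the 95% critical value of Dixon's ratio for 5 samples, and chance alone gives this in about 1 in 20 groups. In NA1c, Kif1b was at 9.29 UMIs per 10000 in replicate 4 (6.76 to 7.38 in the others) and Kif21a at 6.54 in replicate 3 (4.71 to 5.05). Dynlrb1 in NA1c was at 3.38 in replicate 2, against 1.16 to 1.56 in the others, and Dync2h1 in NA1c at 0.261 in replicate 1, against 0.997 to 1.05. Dync1i2 in NA1b was at 6.13 in replicate 2, against 3.27 to 4.05 in the others. In NA2, Dync2h1 was at 0.419 in replicate 2, against 0 to 0.0934.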

How the results depend on the processing

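Of 36 calls of a named gene in a contrast, none changed direction under any alternative run. Leaving out a mouse gave 177 values, of which 143 stayed past the threshold and 34 did not, and the other alternatives gave 286 and 51. Without the mouse as a block, 29 motor genes differed among the subtypes, as with it, 19 in place of 20 were called between NA2 and NA1c, and 2 calls of named genes were lost. Thinning neurons to 2000 UMIs lowered the number of motor genes differing among the subtypes from 29 to 18, those called between NA2 and NA1c from 20 to 13 and those between NA1a and NA1c from 4 to 1. It moved the share of neurons with a UMI of Dync1h1 in NA1c from 94.0% to 85.2%, of Dynll1 from 70.3% to 59.6% in NA1c and from 96.2% to 85.6% in NA2, and of Kifc2 from 45.1% to 32.4% in NA1c and from 11.3% to 4.01% in NA2. With mean natural log values, 5 were called for NA1a against NA1b (3 higher), 8 for NA1a against NA1c (7 higher) and 8 for NA3 against NA1a (0 higher). A pseudocount of 1 gave 5 between NA1a and NA1b (1 higher), and leaving NA3 out of the fit gave 2. With no filter on low values 2 were called between NA1a and NA1c, and with a minimum level of 0.1 3 were called between NA3 and NA1a. Profiles of at least 5 neurons gave 10 between NA3 and NA1a and 19 between NA3 and NA1c, and centring on the median gene gave 1 between NA3 and NA1a. When each mouse was left out in turn, 25 to 28 motor genes differed among the subtypes, 1 to 2 were called in NA1a against NA1b, 2 to 4 in NA1a against NA1c and 0 to 1 in NA1b against NA1c, and 18 to 21 were called between NA2 and NA1c, 1 to 4 between NA3 and NA1a and 9 to 12 between NA3 and NA1c. The low values were those without replicate 5 for NA3 against NA1a and without replicate 1 for NA1a against NA1c. Except for centring, these counts have no share over all genes beside them, so they do not single out the motor genes. The cause of these shifts was not tested. Few UMIs lie behind Dynlt1a, Dync2h1 and the adaptors Hook1 and Hook2 in NA2, with 8, 4, 15 and 2 in 150 neurons.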
